A study of Homo sapiens with 12 samples.

Results

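Keratins are the intermediate filament proteins of epithelial cells. The 8 keratin genes described here, KRT7, KRT8, KRT15, KRT17, KRT18, KRT19, KRT80 and KRT81, were picked by symbol as keratins of ductal carcinoma cells, out of 60617 genes in the expression table. RNA came from PANC-1 cells, which were grown from a human carcinoma of the pancreatic duct and are labelled wild type, and was sequenced as 12 libraries in 4 groups of 3. Transfected cells received either an irrelevant siRNA directed at luciferase (siGL3) or a siRNA directed at MYOF (siMYOF). Untransfected cells received either DMSO as vehicle or WJ460 at 50 nM, a compound used by the study to inhibit myoferlin, the membrane and vesicle protein that MYOF encodes. All libraries are labelled 48 h, which for the siRNA cultures runs, in the methods, from a wash that came after the transfection step. The start point for DMSO and WJ460 is not given in the sources used here. The knockdown rests on a single MYOF siRNA and the whole series on a single cell line. PANC-1 cultures for the knockdown were seeded as biological replicates. For DMSO and WJ460 the sources used here do not say so, and those replicates may be technical. The limma p-values rest on a spread for each gene estimated over all 12 libraries together. Those for WJ460 against DMSO therefore draw on the siRNA libraries as well.

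Keratin filaments are built from pairs, each with an acidic type I chain and a basic type II chain, and a chain without a partner is unstable. KRT8 (type II) and KRT18 (type I) form the pair of simple epithelia, the single-layered linings of ducts and glands. KRT7 (type II) and KRT19 (type I) are added in duct cells, and KRT19 is widely used as a marker of the pancreatic duct and its carcinomas. KRT15 and KRT17 are type I keratins of stratified epithelia and skin appendages, KRT15 of basal cells and KRT17 of appendages and activated keratinocytes. KRT80 is a type II keratin found in many epithelia near desmosomal plaques, and KRT81 is a type II keratin of hair.

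All type II members lie in the keratin cluster of chromosome 12 in GRCh38. These are KRT80 (ENSG00000167767, chr12:52168996-52192014, minus strand), KRT7 (ENSG00000135480, chr12:52232520-52252186, plus strand), KRT81 (ENSG00000205426, chr12:52285913-52291534, minus strand) and KRT8 (ENSG00000170421, chr12:52897187-52949954, minus strand). KRT18 (ENSG00000111057, chr12:52948871-52952906, plus strand) is the type I member that lies beside them. The other type I members lie on chromosome 17, KRT15 (ENSG00000171346, chr17:41513745-41522529), KRT19 (ENSG00000171345, chr17:41523617-41528308) and KRT17 (ENSG00000128422, chr17:41619442-41624842), all on the minus strand. The annotated spans of KRT8 and KRT18 overlap by 1084 bases on opposite strands, of which 525 are exonic in some transcript of both genes. Their main transcripts do not overlap and lie 44041 bases apart. Whether the counting used strand is not given in the sources used here, so reads of that overlap cannot be assigned with certainty.

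The type I members share a conserved coding stretch of 45 bases that encodes the helix termination motif at the end of the rod domain, shown because it lets KRT18 be compared with KRT15, the type I member that changed most. Capitals mark bases that differ from KRT18, and all are coding exon sequence on the sense strand.
KRT18 (chr12:52952296-52952340, exon 6): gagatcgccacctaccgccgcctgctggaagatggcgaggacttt
KRT19 (chr17:41523776-41523820, exon 6): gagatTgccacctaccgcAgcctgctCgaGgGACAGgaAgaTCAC
KRT17 (chr17:41620558-41620702, exons 6 to 7): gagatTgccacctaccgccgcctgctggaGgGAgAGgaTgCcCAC
KRT15 (chr17:41514674-41515515, exons 6 to 7): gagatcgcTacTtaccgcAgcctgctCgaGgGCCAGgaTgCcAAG

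Of the 45 bases, KRT17 differed from KRT18 at 11, KRT19 at 14 and KRT15 at 15. Over whole transcripts, no 75-base window of KRT7, KRT15, KRT19 or KRT80 occurred in another gene. Such windows made up 18.8% of KRT8 and 6.50% of KRT18, whose processed pseudogenes are many, 4.57% of KRT17, and 36.6% of KRT81, which shares them mainly with the hair keratin KRT86. Reads listed under the 23 KRT8 pseudogenes that had any came to between 1.76% and 7.36% of the KRT8 value in a library, and for KRT18 the share was between 0.14% and 0.54%. Adding them to their parent gene changed no call in any comparison.

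The libraries held between 12335147 and 19847210 reads. Values below are normalised read counts, that is, reads divided by a size factor for each library, and they are given in the order of replicates 1 to 3. Replicate 1 of siGL3 and of siMYOF carry an earlier batch date in the labels than the other 10 libraries, and 6628 of the 14720 tested genes differed between early and late siRNA libraries. MYOF itself was at 12786, 20169 and 17823 with siGL3 and at 3470, 2372 and 2003 with siMYOF (log2 fold change -2.71, SE 0.23, limma adjusted p = 2.41e-05), and did not pass the test with WJ460 (0.16, SE 0.23, limma adjusted p = 0.603). Of 12 duct markers, 4 of them keratins described here, CFTR had no read in any library, CDH1 (E-cadherin) averaged 8.46 and EPCAM 63.3, while the duct transcription factor SOX9 averaged 2097. Markers of acinar cells summed to at most 4.35 and of endothelium to at most 5.69 in a library, and of the fibroblast markers COL1A2, DCN, LUM, FAP and PDPN had no read.

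The keratin RNA of these cells was almost wholly KRT18, KRT8 and KRT19. Per kb of main transcript, the DMSO libraries held 10306 ± 55.4 normalised counts of KRT18, 5341 ± 240 of KRT8 and 1172 ± 21.9 of KRT19 (SD, n = 3). Far below came KRT80 at 38.9 ± 1.55 and KRT15 at 17.2 ± 4.71, then KRT7 at 4.23 ± 1.59 and KRT81 at 0.912 ± 0.696 (SD, n = 3). KRT18 was thus 264.9 times KRT80 and 2435 times KRT7 per kb. KRT17 had no read in any DMSO library, which allows a mean normalised count of up to 1.02 (3 reads over the group, counting error only). Against the label of duct carcinoma cells, KRT8, KRT18 and KRT19 were abundant, while KRT7, the other type II chain of duct cells, and the junction gene CDH1 were close to absent. Of 58 other keratin genes in the table, 15 had a read and only KRT10, a type I keratin of the epidermis, reached a mean of at least 5 (54.9 ± 2.59 per kb with DMSO, SD, n = 3).

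**Figure D1:**
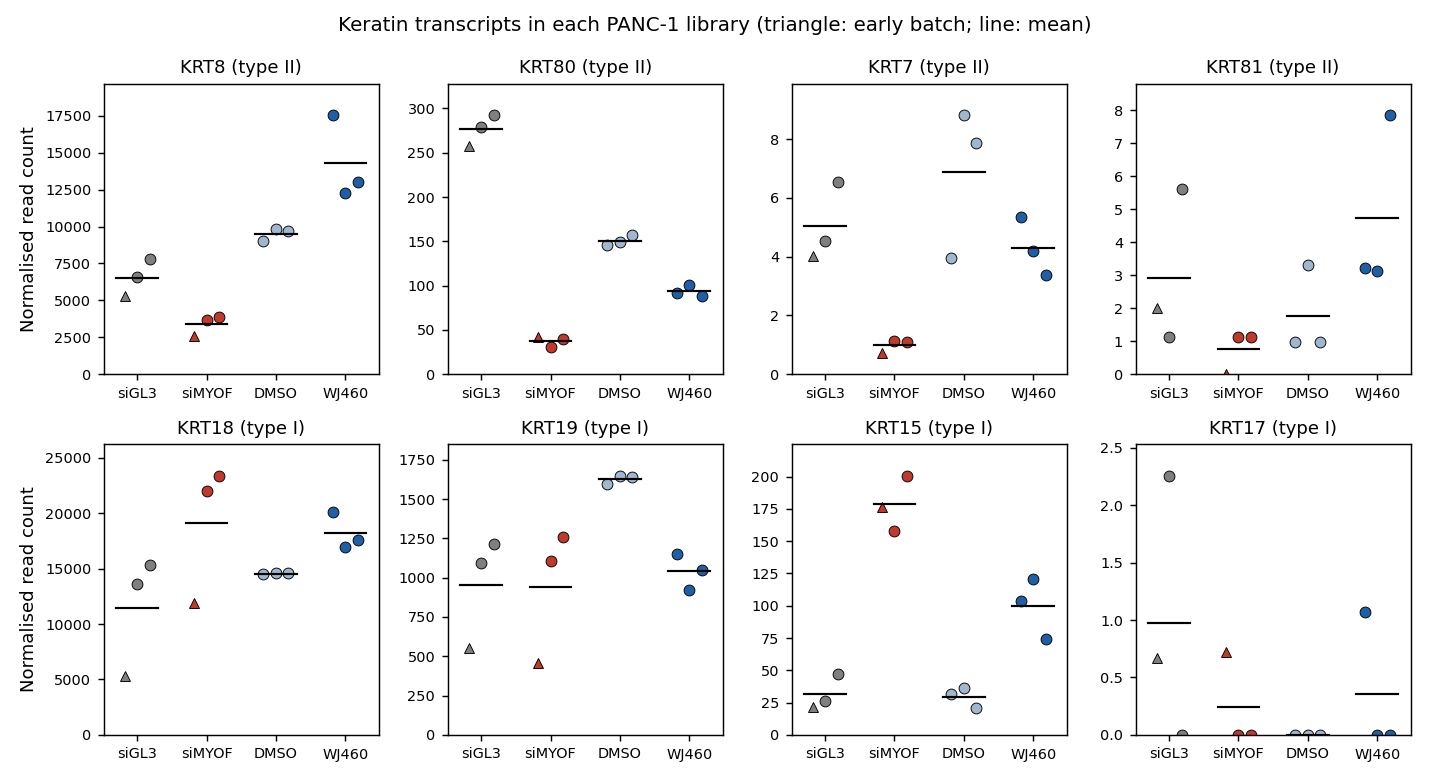
Normalised read counts of the 8 keratins (vertical axes, linear, each from 0) in the 12 libraries by group, with type II genes above and type I genes below. Points are libraries, triangles the early siRNA libraries and lines group means. KRT8 formed 4 separate levels, KRT80 was lowest and KRT15 highest with siMYOF, and KRT7, KRT81 and KRT17 stayed under 9 normalised counts in all libraries.

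Loss of MYOF was compared with the control siRNA to see which transcripts follow it. KRT80 and KRT8, both type II, fell, and KRT15 and KRT18, both type I, rose. KRT19 did not pass the test. Of the 8 keratins, 5 had a mean normalised count of at least 5 and were tested, and 2 were higher and 2 lower at a limma adjusted p under 0.05. Of all tested genes 53.9% passed that threshold (28.0% higher and 25.9% lower), so a call alone does not set the keratins apart. In 3 of the 5 the groups did not overlap, as in 40.9% of all genes. Their median log2 fold change was -0.07 beside 0.01 over all genes, and their median absolute change 0.96 beside 0.38. In bulk RNA, fewer cells with a transcript and less of it per cell cannot be told apart.

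KRT80 had the largest change among the members. It was at 257, 279 and 293 normalised counts with siGL3 and at 42.0, 30.7 and 39.9 with siMYOF. Every siMYOF library lay far below every siGL3 library. The mean fell 7.36-fold, being 276 ± 17.9 with siGL3 and 37.6 ± 6.01 with siMYOF (SD, n = 3). On the log2(value + 1) scale used throughout, the fold change was -2.86 (SE 0.14, limma adjusted p = 1.97e-11). That was the 10th largest fall among the 14720 genes. It was -2.59 between the early libraries and -2.99 between the late ones.

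KRT8, the abundant type II chain, was at 5274, 6581 and 7781 with siGL3 and at 2600, 3675 and 3859 with siMYOF. The groups did not overlap, and in each group the early library was the lowest. Means were 6545 ± 1254 and 3378 ± 680 (SD, n = 3), and KRT8 changed by -0.96 on the log2 scale (SE 0.11, limma adjusted p = 2.83e-06), by -1.02 between the early libraries and by -0.93 between the late ones. Of its pseudogenes that could be tested, KRT8P3 changed by -1.33 (limma adjusted p = 7.33e-04), while KRT8P12 did not pass (-0.25, limma adjusted p = 0.0581).

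KRT18, its type I partner, went the other way. It was at 5319, 13637 and 15304 with siGL3 and at 11904, 21998 and 23408 with siMYOF. The ranges overlapped because the early libraries of both groups were low, but siMYOF was higher both between the early libraries and among the late ones. With the batch in the model KRT18 changed by 0.82 (SE 0.09, limma adjusted p = 8.01e-07), by 1.16 between the early libraries and by 0.65 between the late ones. Without the batch term the SE was 0.35 and the call was lost (limma adjusted p = 0.0915).

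KRT15, a basal keratin with few reads in these cells, was at 21.5, 26.0 and 46.8 with siGL3 and at 176, 158 and 201 with siMYOF. All siMYOF libraries were over 3 times the highest siGL3 library. The mean rose 5.68-fold, being 31.4 ± 13.5 with siGL3 and 178 ± 21.4 with siMYOF (SD, n = 3). The change of 2.54 on the log2 scale (SE 0.26, limma adjusted p = 2.18e-07) was the 25th largest rise among the tested genes, and it was 2.98 between the early libraries and 2.32 between the late ones.

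KRT19, the duct marker, was at 554, 1096 and 1215 with siGL3 and at 457, 1106 and 1257 with siMYOF. The libraries of the same replicate number lay close to each other and the early ones were the lowest of both groups. The log2 fold change was -0.07 (95% interval -0.26 to 0.11, limma adjusted p = 0.513), which leaves room for a small change in either direction.

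KRT7, the duct keratin that PANC-1 hardly expressed, was at 4.03, 4.52 and 6.55 with siGL3 and at 0.725, 1.14 and 1.11 with siMYOF, where each library had 1 read. It was below the minimum for testing. Over the groups 3 reads stood against 17, a ratio of 0.192 (95% exact counting interval 0.0361 to 0.665, counting error only). KRT81 was at 2.02, 1.13 and 5.61 with siGL3 and at 0, 1.14 and 1.11 with siMYOF, 10 reads against 2, and KRT17 had 3 reads against 1. At this depth no difference of KRT81 or KRT17 was detectable, the counting intervals of their ratios being 0.0232 to 1.02 and 0.00692 to 4.52.

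**Figure D2:**
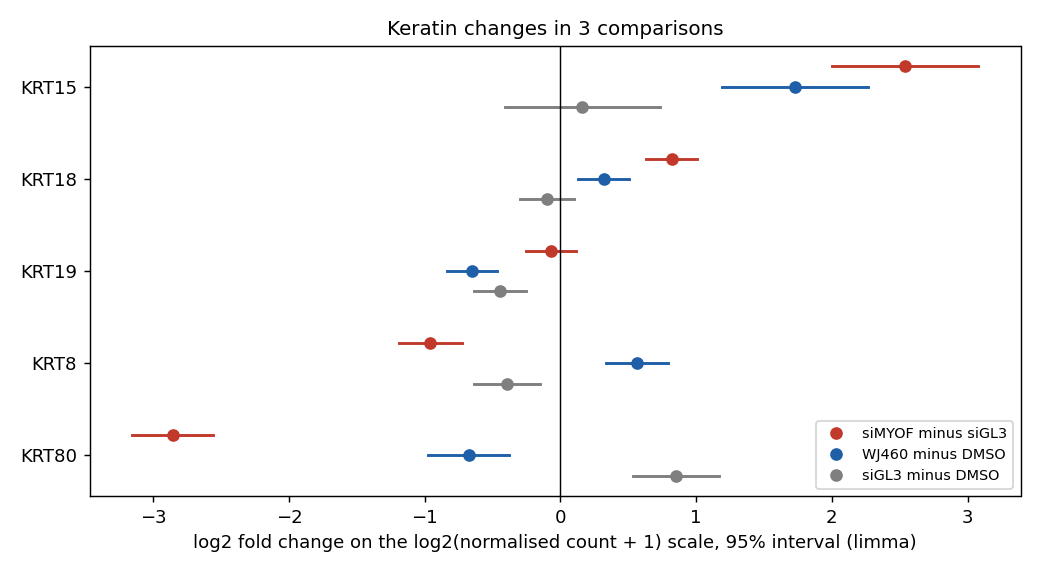
Log2 fold changes of the 5 tested keratins with 95% intervals (limma, horizontal axis) in 3 comparisons. The knockdown moved KRT80 (-2.86) and KRT8 (-0.96) down and KRT15 (2.54) and KRT18 (0.82) up. WJ460 moved KRT15 (1.73), KRT8 (0.57) and KRT18 (0.32) up and KRT19 (-0.65) and KRT80 (-0.68) down.

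WJ460 was compared with its vehicle to see which transcripts respond to the compound. KRT8, KRT18 and KRT15 rose and KRT19 and KRT80 fell. All 5 tested keratins passed the threshold, as did 52.9% of all tested genes (27.3% higher and 25.6% lower), and in all 5 the groups did not overlap, as in 62.2% of all genes. The median of the members was 0.32 beside 0.00 over all genes and their median absolute change 0.65 beside 0.37.

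KRT8 gave 9036, 9817 and 9731 in the DMSO libraries and 17576, 12243 and 13003 in the WJ460 libraries. All WJ460 libraries were higher, and replicate 1 stood above the other 2. Means were 9528 ± 428 and 14274 ± 2884 (SD, n = 3), and the rise was 0.57 on the log2 scale (SE 0.11, limma adjusted p = 4.41e-04). KRT18 gave 14482, 14568 and 14638 in the DMSO libraries, the tightest group of any member, and 20113, 16965 and 17597 in the WJ460 libraries. Across genes too, DMSO libraries differed least from each other. Their chi-square per degree of freedom, against counting error, was 1.47 to 2.25, with 3.58 to 11.95 for WJ460 and 4.25 to 71.99 for the siRNA groups. So tight a group makes non-overlap with DMSO easier to reach. The rise of KRT18 was 0.32 (SE 0.09, limma adjusted p = 0.00612), and its adjusted p was the highest of the 5 members with WJ460. Scaled by total reads, which moved the median of all genes by -0.15, it was 0.16 (limma adjusted p = 0.129), and without the batch term its adjusted p was 0.523 (limma).

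KRT19 gave 1594, 1650 and 1642 in the DMSO libraries and 1152, 921 and 1047 in the WJ460 libraries. The DMSO libraries were nearly equal and all WJ460 libraries lay clearly below them. Means were 1629 ± 30.5 and 1040 ± 116 (SD, n = 3), KRT19 changed by -0.65 (SE 0.09, limma adjusted p = 5.03e-06), and without the batch term the adjusted p was 0.185 (limma). In a fit of the late libraries alone, where no batch term is needed, KRT18 (limma adjusted p = 3.64e-04) and KRT19 (limma adjusted p = 2.93e-06) both passed. KRT80 gave 146, 149 and 157 in the DMSO libraries and 92.2, 101 and 88.7 in the WJ460 libraries, a fall of 0.68 on the log2 scale (SE 0.14, limma adjusted p = 5.98e-04).

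KRT15 gave 31.5, 36.4 and 20.7 in the DMSO libraries and 104, 121 and 74.1 in the WJ460 libraries. It rose 3.38-fold, the means being 29.5 ± 8.06 and 99.7 ± 23.8 (SD, n = 3), or by 1.73 on the log2 scale (SE 0.26, limma adjusted p = 1.98e-05), the 159th largest rise. KRT15, KRT18 and KRT80 thus changed in the same direction under both treatments. KRT7 had 20 reads with DMSO and 12 with WJ460 (ratio 0.634, exact counting interval 0.282 to 1.36), KRT81 had 5 and 13 (2.75, 0.919 to 9.84) and KRT17 had 0 and 1. None of these differences was detectable at this depth.

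The difference between the knockdown effect and the compound effect was tested directly as siMYOF effect minus WJ460 effect. It passed for KRT80 (-2.18, SE 0.20, limma adjusted p = 9.04e-08), KRT8 (-1.52, SE 0.15, limma adjusted p = 1.38e-06), KRT19 (0.58, SE 0.12, limma adjusted p = 7.51e-04) and KRT18 (0.50, SE 0.13, limma adjusted p = 0.00329), where 48.2% of all genes passed (24.2% higher and 24.0% lower). KRT8 was the member whose direction turned, lower with siMYOF and higher with WJ460. For KRT18 and KRT80 the direction was shared and the size differed, and for KRT19 only the fall with WJ460 had passed. Without the batch term the differences of KRT18 (limma adjusted p = 0.492) and KRT19 (limma adjusted p = 0.427) were lost. For KRT15 the difference was 0.81 (SE 0.36, limma adjusted p = 0.0753), while with the replicate number as a block in the model it passed (SE 0.27, limma adjusted p = 0.0178). It also passed without siGL3 replicate 3 (1.11, limma adjusted p = 0.0102), siMYOF replicate 2 (limma adjusted p = 0.0476), DMSO replicate 3 (limma adjusted p = 0.0247) or WJ460 replicate 2 (limma adjusted p = 0.0494), so whether KRT15 rose more with siMYOF was not settled.

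The control groups differed from each other as well. Between siGL3 and DMSO, which differ in transfection and solvent, KRT80 was higher with siGL3 (0.85, SE 0.15, limma adjusted p = 3.42e-04) and KRT19 (-0.45, SE 0.09, limma adjusted p = 0.00133) and KRT8 (-0.40, SE 0.11, limma adjusted p = 0.0158) were lower. These 3 of 5 calls stood beside 32.1% of all genes (16.1% higher and 16.0% lower), and their groups did not overlap, as in 31.3% of all genes. KRT18 (-0.10, limma adjusted p = 0.466) and KRT15 (0.16, limma adjusted p = 0.689) did not pass. The KRT8 call was lost without siGL3 replicate 2 (-0.30, limma adjusted p = 0.105) and without the batch term (limma adjusted p = 0.0739), and the KRT19 call without the batch term (limma adjusted p = 0.168). KRT80 was therefore higher than DMSO in all siGL3 libraries and lower than DMSO in all siMYOF libraries. siGL3 enters the knockdown comparison and DMSO the compound comparison, and this control comparison shares libraries with both.

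Taking all groups, KRT8 fell into 4 levels whose ranges did not overlap, WJ460 above DMSO above siGL3 above siMYOF. KRT80 also had 4 separate levels, in the order siGL3, DMSO, WJ460 and siMYOF. KRT15 was highest with siMYOF, then with WJ460, and siGL3 and DMSO overlapped. KRT19 was highest with DMSO and its other groups overlapped. KRT18 overlapped between siMYOF and WJ460 and between DMSO and siGL3, and all WJ460 libraries were above all DMSO libraries.

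The batch difference passed for some keratins and not for others. Early siRNA libraries were lower than late ones in KRT19 (-1.21, SE 0.09, limma adjusted p = 6.87e-09), KRT18 (-1.19, SE 0.09, limma adjusted p = 4.27e-08) and KRT8 (-0.49, SE 0.11, limma adjusted p = 0.00288). KRT15 (-0.35, limma adjusted p = 0.320) and KRT80 (0.05, limma adjusted p = 0.804) did not pass. All 3 calls were downward, none upward, beside 21.2% of all genes higher and 23.8% lower in the early libraries (45.0% together). The batch differences of KRT18 and KRT19 were larger in size than their changes with siMYOF.

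KRT8 and KRT18 are made as obligate partners, and their RNA ratio moved with the knockdown. Per kb of main transcript, KRT18 stood to KRT8 as 1.27, 2.62 and 2.48 with siGL3 and as 5.78, 7.56 and 7.66 with siMYOF. With DMSO the ratios were 2.02, 1.87 and 1.90 and with WJ460 1.44, 1.75 and 1.71. All siMYOF libraries lay above all other libraries, and all WJ460 libraries lay below all DMSO libraries. As a share of all keratin RNA per kb, KRT18 made up between 81.1% and 83.8% with siMYOF and between 51.7% and 67.5% with siGL3, and KRT8 made up between 10.9% and 14.0% with siMYOF and between 25.8% and 40.6% with siGL3. The sum of all type I keratins over all type II keratins was between 6.07 and 8.10 with siMYOF, against 1.40 to 2.80 with siGL3, 2.09 to 2.25 with DMSO and 1.54 to 1.86 with WJ460. Total keratin RNA per kb was between 19711 and 25085 with WJ460 and between 16576 and 17120 with DMSO. With siMYOF (10384 to 19821) and siGL3 (7279 to 16252) it overlapped, the early library being the lowest of each group. It was higher with siMYOF between the early libraries (10384 against 7279) and among the late ones (18584 and 19821 against 14289 and 16252). These ratios are descriptions built from the values tested above and carry no test of their own.

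**Figure D3:**
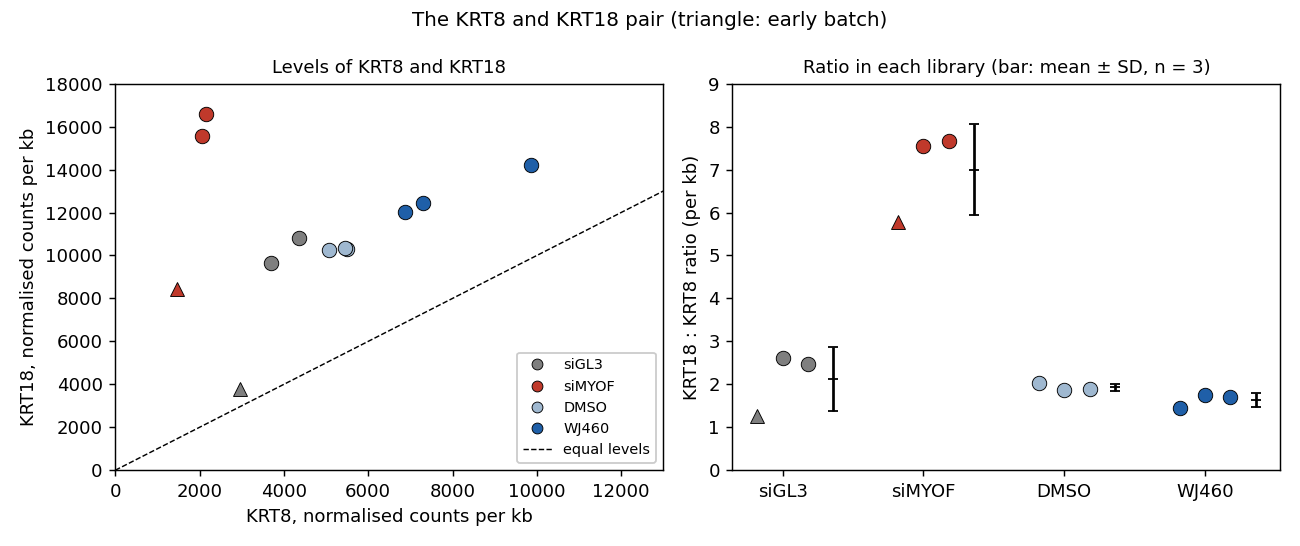
Left, KRT18 against KRT8 in each library, both in normalised counts per kb, with the dashed line at equal levels. Right, the KRT18 to KRT8 ratio per kb by library with mean ± SD (n = 3). The siMYOF libraries (5.78 to 7.66) lie above all others (1.27 to 2.62), and siGL3 replicate 1 is nearest to equal levels.

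The genes most like each tested keratin over the 12 libraries, by Pearson r of log2 values among 10955 genes with a mean of at least 50, were PPCDC and CCDC61 for KRT8 (r = 0.98 for either). For KRT18 they were AATF and TUBGCP2 (0.97 for either), for KRT19 SIX5 and the unnamed locus AC008771.1 (0.96 for either), for KRT15 MRPL15 and the amino acid transporter chain gene SLC3A2 (0.97 for either), and for KRT80 RBMXL1 and SMIM30 (0.98 for either). SLC3A2 averaged 1293 with siGL3, 4155 with siMYOF, 1180 with DMSO and 2803 with WJ460, the same order of groups as KRT15. These correlations are over libraries that share treatments and batches and describe likeness alone. Among the members, KRT15 and KRT80 ran most opposite to each other (r = -0.87), while the partners KRT8 and KRT18 were only weakly related (r = 0.18, n = 12 libraries).

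KRT10, the only other keratin that could be tested, shared the directions of KRT8 under both treatments, although it is a type I chain. Between siGL3 and DMSO it did not pass (0.28, limma adjusted p = 0.101), where KRT8 was lower with siGL3. It was lower with siMYOF (-0.40, limma adjusted p = 0.00828) and higher with WJ460 (0.41, limma adjusted p = 0.00716), and the effects differed (-0.81, limma adjusted p = 5.90e-04). Its group means were 148 with siGL3, 112 with siMYOF, 118 with DMSO and 157 with WJ460. Of the genes of the cornified envelope, the protein shell of skin cells that goes with stratified keratins, 5 of 18 listed had a read and 2 could be tested. TGM1, which crosslinks that envelope, averaged 10.5 normalised counts, rose with WJ460 (1.95, limma adjusted p = 0.00162) and did not pass with siMYOF (0.72, limma adjusted p = 0.199). The involucrin gene IVL, the genes SPRR1A and SPRR1B, and the basal keratin genes KRT5 and KRT14 had no read in any library, in siMYOF libraries with KRT15 included.

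Keratins are anchored at desmosomes and hemidesmosomes by plakins and armadillo proteins. Of 15 tested genes of this kind, 3 rose, 4 fell and 8 did not pass with siMYOF, with a median of 0.03, and 3 rose, 6 fell and 6 did not pass with WJ460, with a median of -0.23. Over all genes the medians were 0.01 and 0.00, and 53.9% passed with siMYOF (28.0% higher, 25.9% lower) and 52.9% with WJ460 (27.3% higher, 25.6% lower), so the 7 and 9 called of 15 were near the general rate. One of the 3 that rose with WJ460, COL17A1, a hemidesmosome collagen named after its values were seen, reached the minimum of 5 only through WJ460, averaging 12.2 there and 1.64 with DMSO, and its rise is no support for the count. Periplakin (PPL), a plakin that links filaments to desmosomes, fell with siMYOF (-3.12, limma adjusted p = 2.79e-11) and with WJ460 (-2.04, limma adjusted p = 8.52e-09). Plakoglobin (JUP) fell with both (-0.74 and -1.40), and the hemidesmosome integrin chain gene ITGB4 fell with siMYOF (-2.11, limma adjusted p = 2.62e-07) and WJ460 (-0.84, limma adjusted p = 0.00400). The linker gene dystonin (DST) rose with both (0.82 and 0.44). The armadillo gene PKP4 rose with WJ460 (0.91) and did not pass with siMYOF (-0.12, limma adjusted p = 0.0987). The list therefore moved in both directions, with PPL, like KRT80, lower under either treatment.

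**Figure D4:**
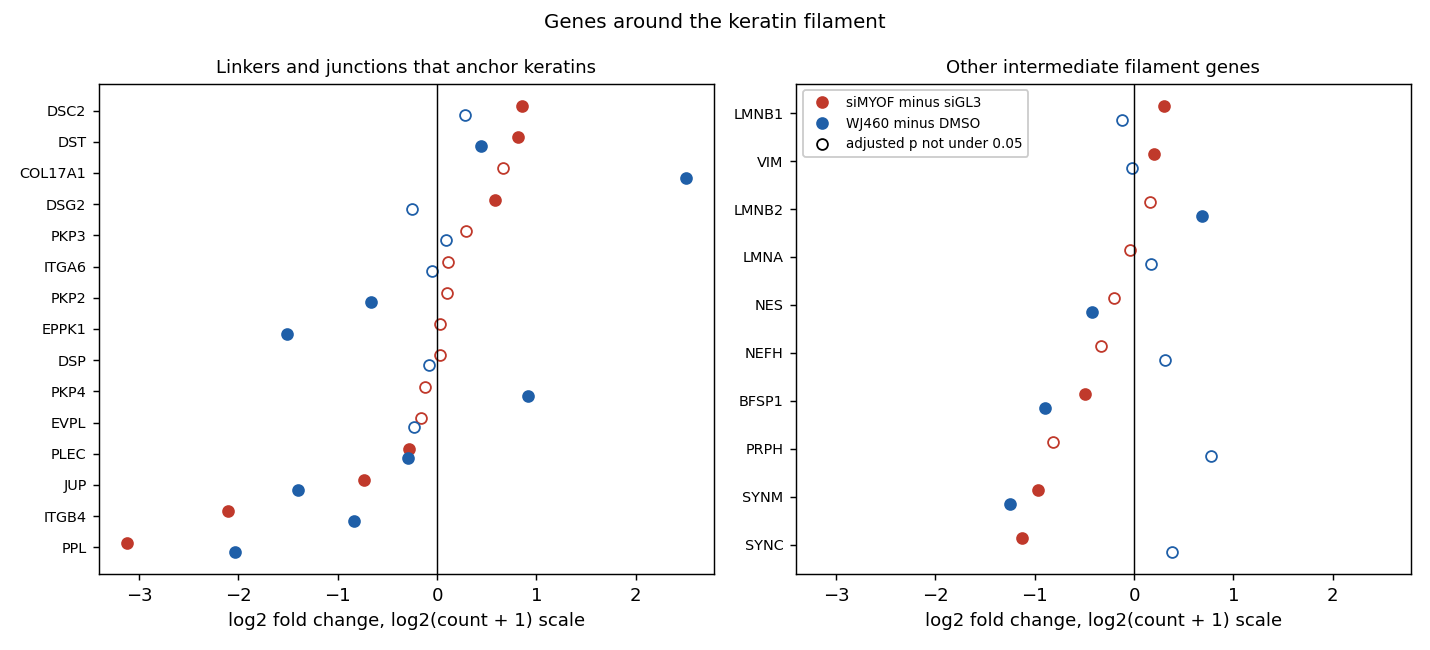
Log2 fold changes (horizontal axes) of tested genes that anchor keratins (left) and of other intermediate filament genes (right), with siMYOF in red, WJ460 in blue and open circles where the limma adjusted p was not under 0.05. PPL is lowest in both comparisons on the left (-3.12 and -2.04), and most genes on the right lie within 1 log2 unit of 0.

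Of 10 tested genes for other intermediate filaments, 2 rose and 3 fell with siMYOF and 1 rose and 3 fell with WJ460. Their medians were -0.27 and 0.08 beside 0.01 and 0.00 over all genes, of which 53.9% and 52.9% passed. Synemin (SYNM), which joins other filaments, fell with both (-0.96, limma adjusted p = 4.04e-08, and -1.25, limma adjusted p = 2.58e-09), as did BFSP1 (-0.50 and -0.90). The lamin gene LMNB1 rose with siMYOF (0.30) and did not pass with WJ460 (-0.13, limma adjusted p = 0.0931), and LMNB2 rose with WJ460 (0.68) and did not pass with siMYOF (0.16, limma adjusted p = 0.0791). Vimentin (VIM), the filament of mesenchymal cells, named here after its values were seen because of its level, averaged 76020 normalised counts. VIM rose with siMYOF (0.20, limma adjusted p = 0.0282) and did not pass with WJ460 (-0.02, limma adjusted p = 0.853). Its early siRNA libraries were lower than the late ones (-1.50, limma adjusted p = 2.13e-11), a difference larger in size than the rise with siMYOF.

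Proteins that bind or modify keratins were counted as a further list, chaperones, kinases, 14-3-3 proteins and transglutaminase among them. With siMYOF 9 of 14 rose and 1 fell, and with WJ460 4 rose and 5 fell, with medians of 0.22 and -0.05 beside 0.01 and 0.00 over all genes. Of all genes 28.0% rose and 25.9% fell with siMYOF, and 27.3% rose and 25.6% fell with WJ460. FAM83H, a scaffold that sets keratin organisation through casein kinase 1, fell with siMYOF (-0.86, limma adjusted p = 1.66e-07) and WJ460 (-0.39, limma adjusted p = 0.00109), while the casein kinase gene CSNK1A1 rose with both (0.37 and 0.43). DNAJB6, a chaperone that binds KRT18, rose with siMYOF (0.67, limma adjusted p = 1.23e-08) and WJ460 (0.99, limma adjusted p = 1.80e-10). The crosslinking enzyme gene TGM2 rose with WJ460 (2.15, limma adjusted p = 7.68e-10) and with siMYOF (0.42, limma adjusted p = 0.0130). YWHAE, a 14-3-3 gene, fell with WJ460 (-0.75, limma adjusted p = 2.82e-09) and rose with siMYOF (0.14, limma adjusted p = 0.0317).

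Transcription factors that set or repress epithelial identity made up another list. With siMYOF 7 of 14 rose and 1 fell, and with WJ460 4 rose and 6 fell. In the test of siMYOF effect minus WJ460 effect, 9 passed with a positive difference and none with a negative one. The median difference was 1.07 beside -0.01 over all genes. A positive difference does not mean a rise with siMYOF, as FOXA2 and SP1 had one through their fall with WJ460. Of all genes 28.0% rose and 25.9% fell with siMYOF, 27.3% rose and 25.6% fell with WJ460, and 24.2% were higher and 24.0% lower in the difference. RUNX1 (1.50, limma adjusted p = 5.24e-09), KLF4 (1.77, limma adjusted p = 5.03e-07) and SOX9 (0.66, limma adjusted p = 4.82e-08) rose with siMYOF. With WJ460, RUNX1 (0.35, limma adjusted p = 0.0159) and KLF4 (0.50, limma adjusted p = 0.0419) rose as well and SOX9 fell (-0.40, limma adjusted p = 2.39e-05). FOXA2 (-1.48, limma adjusted p = 1.77e-10), SP1 (-1.23, limma adjusted p = 1.42e-09) and TFAP2A (-1.18, limma adjusted p = 1.18e-09) fell with WJ460. With siMYOF, TFAP2A rose (0.61, limma adjusted p = 2.55e-06), and FOXA2 (-0.11, limma adjusted p = 0.262) and SP1 (0.06, limma adjusted p = 0.586) did not pass. ZEB1, a repressor of epithelial genes, rose with both (0.66 and 0.69). Of 13 epithelial junction genes, 3 rose and 2 fell with siMYOF and 1 rose and 4 fell with WJ460, beside 53.9% and 52.9% of all genes that passed. OCLN rose with siMYOF (0.77, limma adjusted p = 2.71e-07) and did not pass with WJ460 (-0.03, limma adjusted p = 0.797). CLDN4 rose with both (0.84 and 1.42), and ESRP2, a splicing regulator of epithelial cells, fell with both (-0.62 and -0.56). F11R fell with siMYOF (-0.31) and did not pass with WJ460 (0.09). TJP1 rose with siMYOF (0.23) and fell with WJ460 (-0.54). CGN (-0.78) and CDH1 (-2.17), the latter at a low mean of 8.46, fell with WJ460 and did not pass with siMYOF (0.10 and -0.71).

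Of the 12 duct markers, 9 were tested, 3 of them keratins above, with 4 higher, 2 lower and 3 not passing with siMYOF and 4 higher, 3 lower and 2 not passing with WJ460, where 53.9% and 52.9% of all genes passed. Markers of other cell types gave few values, as 0 of 8 acinar, 0 of 5 endothelial, 1 of 8 fibroblast, 1 of 6 endocrine and 2 of 6 leukocyte markers could be tested. PDGFRB, the only fibroblast marker tested, fell with WJ460 (-1.16, limma adjusted p = 3.18e-04) and did not pass with siMYOF (-0.32, limma adjusted p = 0.250), and the fibroblast list summed to between 28.6 and 40.8 with DMSO, 13.6 to 17.1 with WJ460, 57.1 to 80.2 with siGL3 and 47.8 to 61.0 with siMYOF. SYP, the only endocrine marker tested, fell with siMYOF (-0.43, limma adjusted p = 0.00328) and with WJ460 (-0.48, limma adjusted p = 0.00139), while insulin (INS), GCG and SST had no read. Leukocyte markers summed to between 5.22 and 37.3, and neither tested one passed with siMYOF or WJ460. COL1A2, DCN and LUM, which define fibroblasts, had no read in any library. The part of PDGFRB and SYP in the keratin results was not tested.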

How the data were processed

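Reads had been aligned with STAR and quantified with Salmon on GRCh38, per the labels, and the authors deposited signal values, which are read counts per gene over a size factor of each library, as DESeq2 gives. Whole reads were recovered for 100% of values (tolerance 0.001 reads). R 4.3.3 and limma 3.58.1 (trended, robust) were run on log2(value + 1) for 14720 genes whose normalised count averaged 5 or more. A fit of all 12 libraries had the 4 groups and the label batch as terms, and genes were called at a Benjamini-Hochberg adjusted p under 0.05 over all 14720. The value + 1 scale understates changes of low genes. edgeR 4.0.16 and DESeq2 1.42.0 on recovered reads were alternatives, with other scalings, filters and pseudocounts, no batch term, a replicate block and each library left out. Deviations of same-numbered siGL3 and siMYOF libraries from their group means correlated (r = 0.886, 0.749 and 0.796 over 10962 genes). Replicates 2 and 3 also correlated across numbers (0.640 and 0.555). Replicate 1 is the early batch in both groups, so r mixes the batch with any pairing by number. Same-numbered DMSO and WJ460 libraries did not correlate (-0.014 to 0.043). The rule for naming genes took the 8 members, testable keratins, MYOF and up to 4 list genes per treatment by smallest p. It also took the 2 genes of highest r for each tested member, and r was not computed for KRT7, KRT17 and KRT81. Of the list genes it took, MUC1, SYNC, NES and MAPK14 are not described. Other genes, such as CFTR, CDH1, EPCAM, IVL and INS, are named outside the rule. The members and the 13 gene lists were chosen with earlier results of these data known. Identifiers matched the GENCODE annotation for 60261 of 60617 genes. The pipeline was tested on simulated data with changes in siMYOF alone, a single dispersion for all genes and no batch difference. That test therefore does not cover the batch or the unequal spread of these libraries. Intervals of read ratios cover counting error only.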

Additional observations from a re-analysis of the deposited data

Results flagged for a closer look

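The knockdown and the compound, each against its own control, changed 4 keratins by different amounts in a direct test of the difference (siMYOF effect minus WJ460 effect, log2 scale). The difference was -2.18 for KRT80, -1.52 for KRT8, 0.58 for KRT19 and 0.50 for KRT18, each past a limma adjusted p of 0.05. Only for KRT8 did the libraries move in opposite directions, lower in all siMYOF and higher in all WJ460 libraries than in their controls. Groups of 3 libraries are too small for the check on single outlying libraries, which was not made.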

How the results depend on the processing

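No called keratin result reversed its direction in any alternative. Leaving out the batch term changed most. Genes called were then 5425 in place of 7932 for siMYOF, 5140 in place of 7784 for WJ460, 4309 in place of 7093 for the difference between effects and 1331 in place of 4720 for siGL3 against DMSO, and keratins called were, in that order, 3 in place of 4, 3 in place of 5, 2 in place of 4 and 1 in place of 3. With 1 library left out, between 6928 and 8226 genes were called for siMYOF, 6802 and 7999 for WJ460, 6482 and 7152 for the difference and 3469 and 5164 for the controls, with 4 keratins called for siMYOF throughout, 5 for WJ460, 4 to 5 for the difference and 2 to 3 for the controls. The replicate block, which treats libraries of the same number as pairs, called 8146 genes for siMYOF and, among the keratins, changed only the difference of KRT15 (limma adjusted p = 0.0178). edgeR and DESeq2 on the recovered reads changed no keratin call. Scaling by total reads moved the share of higher genes among those called from 52.0% to 40.1% for siMYOF, from 51.6% to 33.7% for WJ460 and from 50.1% to 37.2% for the controls, and of the keratin calls ended only that of KRT18 with WJ460. Without the filter on low values KRT7 passed with siMYOF (-1.58, limma adjusted p = 0.0120). Depth limits KRT7, KRT17 and KRT81, with 0 to 20 reads per group.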
